A study of Mus musculus with 4 samples.

Results

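Mature B cells of the liver were taken as the barcodes that carried transcripts of the B cell antigen receptor complex and had none or few of certain genes of other leukocytes. A barcode counted as a member when it had at least 200 detected genes and less than 10% mitochondrial transcripts, at least 1 unique molecular identifier (UMI, 1 captured transcript) of Cd79a, and at least 1 UMI of Ms4a1 or Cd79b. It also had no UMI of Cd3d, Cd3e or Cd3g, none of Siglech, at most 1 of Lyz2 and fewer than 10 of Jchain. The rule found 3461 B cells among 20039 barcodes that passed the quality filter, of 20464 deposited. The members were thus chosen by measured levels of these genes, whose values are given as a description only.

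B cells recognise antigen through surface immunoglobulin, which signals through CD79A and CD79B, and they present the bound antigen to T cells on MHC class II. Follicular B cells recirculate between blood and lymphoid organs, whereas marginal zone and B-1 cells are innate-like populations that respond quickly to microbial antigens. The liver receives B cells with the blood and has few of the organised follicles in which B cells mature.

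The series holds liver leukocytes (CD45+ cells) of IL-22sgBFP mice, a reporter genotype in which cells that make interleukin-22 fluoresce blue. The mice were studied 12 h after an intrasplenic injection of MC38 cancer cells in PBS, MC38 being a mouse colon carcinoma line, or before any injection. Livers were digested with collagenase and DNase I, leukocytes were enriched on Percoll and sorted into IL-22-BFP positive and negative cells, and droplet libraries were made from the 3' ends of transcripts. The study asked which liver leukocytes express IL-22 before and after the injection. All 4 groups share the reporter genotype and the sort on CD45, and they are the IL-22-positive cells at 12 h, the IL-22-negative cells at 12 h, the IL-22-positive cells at 0 h and the IL-22-negative cells at 0 h. Each group is 1 library, no group received an injection without cancer cells, and how many mice were pooled in a library is not stated. No p-value can therefore be given: every interval below is an exact 95% interval for counting error alone, and every ratio compares 2 libraries and not 2 conditions.

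The deposited libraries held 10231 barcodes (IL-22-negative, 12 h), 8555 (IL-22-negative, 0 h), 1378 (IL-22-positive, 12 h) and 300 (IL-22-positive, 0 h), with 29859062, 18891674, 5048583 and 1148221 UMIs in the same order. The IL-22-negative library at 12 h was deeper over all its cells, with a median of 2230 UMIs per barcode against 1829 at 0 h, but not among B cells, whose medians were 1601 UMIs at 12 h and 1693 at 0 h. Barcodes with fewer than 1000 UMIs made up 7.13% of the library at 12 h and 22.2% at 0 h, and 5.66% and 7.28% of their B cells. The 2 IL-22-negative libraries shared 116 barcode sequences, 4 of them among B cells, and the other pairs of libraries shared at most 13, none of them among B cells.

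B cells made up 17.2% of the IL-22-negative cells at 12 h (1732 of 10099, interval 16.4 to 17.9%) and 20.2% at 0 h (1675 of 8301, interval 19.3 to 21.1%). The share at 12 h was 0.850 times that at 0 h (interval 0.794 to 0.910). T cells, taken as barcodes with a Cd3 transcript and none of Cd79a, Cd79b or Ms4a1, numbered 4229 at 12 h and 2832 at 0 h. Of B and T cells together, B cells were thus 29.1% at 12 h and 37.2% at 0 h. Shares of a sorted library depend on every other cell type in it, and numbers of cells per liver were not measured. Since shallow barcodes were commoner in the library at 0 h, the share was also taken over barcodes with at least 1000 UMIs, where it was 0.724 times as high at 12 h.

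Of all IL-22-positive cells, B cells made up 1.63% at 12 h (22 of 1350, interval 1.02 to 2.46%) and 11.1% at 0 h (32 of 289, interval 7.70 to 15.3%), a share 0.147 times as high at 12 h (interval 0.0815 to 0.261). Against the IL-22-negative cells of the same time, the share in the IL-22-positive cells was 0.0950 times as high at 12 h (interval 0.0594 to 0.144) and 0.549 times as high at 0 h (interval 0.374 to 0.778). Of B and T cells together the order was the other way: B cells were 37.3% of the IL-22-positive ones at 12 h (22 B and 37 T cells, interval 25.0 to 50.9%), against 29.1% of the IL-22-negative ones, and 48.5% at 0 h (32 B and 34 T cells, interval 36.0 to 61.1%), against 37.2%. At each time the interval of the positive cells included the share of the negative ones, so this order lay within counting error. Over these 2 cell types the shares of the positive cells at 12 h and 0 h had overlapping intervals. The B cells sorted as positive held no UMI of Il22, the cytokine gene itself: 0 of 22 cells at 12 h, which allows a share of up to 13.6%, and 0 of 32 at 0 h, which allows up to 9.38%. These limits, 3 cells over the number of cells, bound the share of cells with a captured UMI and not the share that expresses the gene. The IL-22-negative B cells held 0 Il22 UMIs at 12 h and 1 at 0 h.

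**Figure D1:**
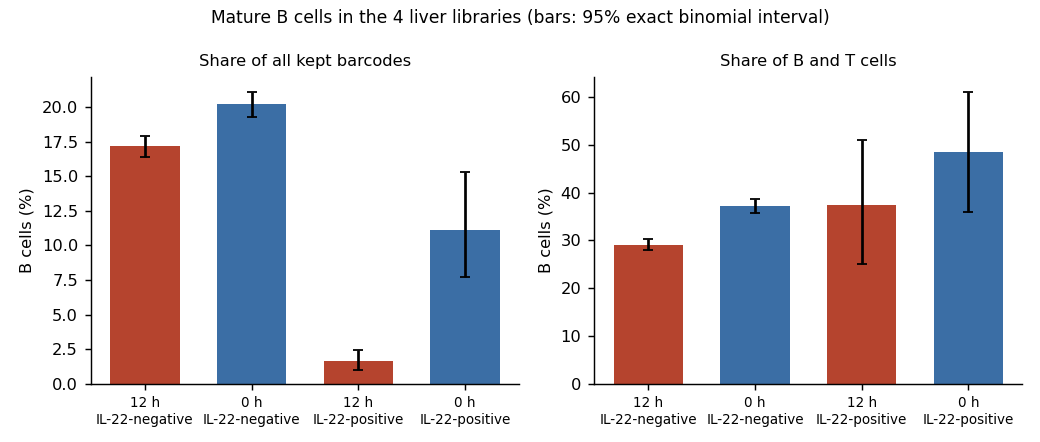
Share of mature B cells in each of the 4 libraries, in percent of all kept barcodes (left) and in percent of B and T cells (right), with exact 95% binomial intervals as bars and 1 library per group. In the IL-22-negative libraries B cells were 17.2% at 12 h and 20.2% at 0 h, and in the IL-22-positive libraries 1.63% and 11.1%.

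Of the genes that chose the cells, Cd79a stood at 5743 and 5319 counts per 1000000 UMIs of the summed B cells (CPM) at 12 h and 0 h in the IL-22-negative libraries. Cd79b stood at 2793 and 3123 CPM, and Ms4a1, which encodes CD20, at 729 and 749 CPM. Just inside the rule lay the members with a single Cd79a UMI, 24 at 12 h and 78 at 0 h, and those with 1 Lyz2 UMI, 216 and 161. Just outside lay 84 and 186 barcodes with Ms4a1 or Cd79b but no Cd79a, 88 and 182 with Cd79a alone, and 22 and 13 that had 2 Lyz2 UMIs and met every other condition. Among barcodes with Cd79a and a partner, 556 at 12 h and 855 at 0 h were left out for a Cd3 transcript.

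Genes that the rule did not use fitted the label. Pax5, a transcription factor that maintains B cell identity, stood at 117 and 118 CPM in B cells at 12 h and 0 h, against 1.00 and 3.02 CPM in T cells of the same libraries. Ebf1, a transcription factor that specifies the B lineage, stood at 749 and 783 CPM in B cells and at 1.09 and 6.82 CPM in T cells. Ly6d, a B lineage surface protein, stood at 2340.3 and 2282 CPM in B cells and at 10.9 and 25.2 CPM in T cells. Of genes of immature B cells, Rag1, which cuts the receptor genes for recombination, was seen in 1 and 3 B cells. Igll1, part of the surrogate light chain, was seen in 3 and 1. Vpreb3, however, was seen in 35.9% and 28.7% of B cells, against 0.166% and 0.671% of T cells. A list of 10 transitional B cell genes summed to 855 and 828 CPM in B cells and to 181 and 198 CPM in T cells. The 12 T cell markers summed to 90.1 and 150.4 CPM in B cells, against 5173 and 5243 CPM in T cells, and the rule had removed the Cd3 genes among them. The 14 hepatocyte markers summed to 10.4 and 13.8 CPM.

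The immunoglobulin genes showed a mostly unswitched population in both libraries. Ighm, the IgM constant region, stood at 541 CPM at 12 h and 480.4 at 0 h, and Ighd, the IgD constant region, at 162 and 154 CPM. Ighm or Ighd was seen in 66.3% of B cells at 12 h and 62.8% at 0 h, and in 16.2% and 16.6% of T cells. Of single genes, Ighm was seen in 15.7% and 15.9% of T cells, but Ighd in 0.662% and 0.918% and Iglc2 in 1.51% and 3.85%, so the T cell share of Ighm was not that of the other B cell transcripts, and its source was not tested. Switched constant genes were seen in 2.94% of B cells at 12 h and 6.21% at 0 h. T cells had them at 1.75% and 5.01%, so that most of this share lay at the level seen in T cells. Igha, for IgA, stood at 8.86 and 18.1 CPM, Ighg2b at 7.94 and 19.4, Ighg2c at 0.611 and 4.28, Ighg3 at 3.36 and 1.65, and Ighg1 at 1.22 and 0.658, all for IgG subclasses; Ighe, for IgE, was not seen. Igkc, the kappa light chain constant region, stood at 859 and 900.3 CPM in B cells and at 12.4 and 24.4 CPM in T cells.

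Between 12 h and 0 h, B cells of the IL-22-negative libraries differed in few genes. Of 3345 genes with at least 100 UMIs and 30 CPM in the higher of the 2 sums, 37 were at least 1.5-fold higher at 12 h, which is 1.11%, and 93 were at least 1.5-fold lower, which is 2.78%. The receptor segments, mitochondrial and ribosomal protein genes, sex-linked genes and the genes of the rule were not counted among them. The median gene had a log2 ratio of -0.06. These shares and this median are the background for the list counts below. A single member past 1.5-fold is not read as a result about its list. At 12 h the genes higher in B cells included Ifi30 and Napsa, which encode lysosomal enzymes, the calcium-binding protein gene S100a6, and Srm, Mrto4 and Nme1 of biosynthesis. The genes lower included the immediate early factors Fos, Fosb and Egr1, the IgE receptor gene Fcer2a and replication-dependent histone genes. With another scaling the balance of both directions shifted: with median-ratio scaling 48 genes were higher and 53 lower, and with totals that left out receptor, mitochondrial and ribosomal genes 47 were higher and 59 lower. Ribosomal protein genes took 32.5% of the B cell UMIs at 12 h and 30.0% at 0 h.

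Some of the genes past 1.5-fold moved with a few cells or with markers of other cell types. To set these aside, the cells were clustered without the genes past 1.5-fold, and 2 sub-clusters were left out. The first was led by natural killer (NK) cell genes. The second was led by the nuclear RNA Kcnq1ot1 and by Txk, a kinase of T cells, and held 3.98% of B cells at 12 h and 11.0% at 0 h. Its T cell markers summed to 286 CPM, against 71.7 to 129.6 CPM in the sub-clusters that were kept. Its NK and ILC1 list summed to 1426 CPM, against 409 to 688 CPM. The erythroid and platelet list summed to 411 CPM there, against at most 26.7 CPM. With a median of 1246 UMIs its cells were also the shallowest of all sub-clusters. The part of depth in what its removal changed was not tested. Without both, 30 of the 37 higher genes and 56 of the 93 lower genes stayed past 1.5-fold. With the same direction in cells with Xist and in cells with Y-linked transcripts as a further demand, 28 higher and 51 lower genes stayed. Both kinds of cell are part of the sums on which the genes were called, so agreement in direction is no independent support. In Xist cells 36 of the 37 higher genes and 92 of the 93 lower genes agreed. A gene without a UMI at 0 h in the Y-linked cells, such as Cxcl2, counted as higher.

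Immediate early genes, which are transcribed within minutes of a signal and also during tissue digestion, were lower at 12 h. The list holds 19 genes, all abundant enough to compare, and 15 had a ratio below 1, 3 of them past 1.5-fold (Fos, Fosb and Egr1) and none past it upwards. Of all eligible genes 2.78% were past 1.5-fold downwards and 1.11% upwards. The median log2 ratio of the list was -0.29, against -0.06 over all genes. Fos and Fosb encode partners of c-Jun in the AP-1 transcription factor, and Jun encodes c-Jun. Their promoters are shown because immediate early genes, Fos among them, are known to be induced through a CRE site. The sequences are RefSeq reference sequence of build GRCm38.p6, from 250 bases before to 50 after the start of each gene, written 5' to 3' on the gene's strand. Capitals mark matches of 3 motifs that do not overlap here. The first is the CRE half-site, whose letters are TGACG. The second is the E-box, which was searched as the palindrome CACGTG. The third is the TATA box, for which the letters TATAAA were used. All were searched on both strands, so a match on the other strand reads as the reverse complement. Of 32851 mouse promoters of this length, 20.8% held the CRE half-site, 7.15% the E-box and 13.6% the TATA box. The Fos window is chr12:85473640-85473939 (plus strand), the Fosb window chr7:19309996-19310295 (minus strand) and the Jun window chr4:95052173-95052472 (minus strand).
Fos: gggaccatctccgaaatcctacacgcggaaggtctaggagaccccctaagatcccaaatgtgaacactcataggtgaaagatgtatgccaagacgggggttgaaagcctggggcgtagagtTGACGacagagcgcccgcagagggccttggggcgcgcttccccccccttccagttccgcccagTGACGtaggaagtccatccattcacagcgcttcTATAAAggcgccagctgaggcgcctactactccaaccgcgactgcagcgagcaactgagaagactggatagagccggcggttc
Fosb: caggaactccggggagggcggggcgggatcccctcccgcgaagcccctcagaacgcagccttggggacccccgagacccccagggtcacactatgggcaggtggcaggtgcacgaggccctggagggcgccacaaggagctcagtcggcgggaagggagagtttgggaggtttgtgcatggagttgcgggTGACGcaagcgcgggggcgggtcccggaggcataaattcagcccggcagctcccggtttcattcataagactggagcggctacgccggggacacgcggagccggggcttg
Jun: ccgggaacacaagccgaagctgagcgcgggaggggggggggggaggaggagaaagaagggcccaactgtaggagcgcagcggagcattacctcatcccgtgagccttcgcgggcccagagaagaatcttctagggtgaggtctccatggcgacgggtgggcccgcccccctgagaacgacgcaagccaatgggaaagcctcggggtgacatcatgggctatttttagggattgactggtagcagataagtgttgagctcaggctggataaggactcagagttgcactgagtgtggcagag
The Fos window held 2 CRE half-sites and 1 TATA box, the Fosb window 1 CRE half-site, and the Jun window none of the 3 motifs. A match describes the letters and shows no binding.

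Fos (chromosome 12, 85473890 to 85477273, plus strand, GENCODE vM21) stood at 1237 CPM at 12 h (4049 UMIs in 1216 of 1732 B cells) and 2170.2 CPM at 0 h (6595 UMIs in 1426 of 1675), a ratio of 0.570 (interval 0.548 to 0.593). With every cell thinned to 1000 UMIs, Fos was seen in 56.3% of B cells at 12 h and 74.7% at 0 h, against 70.2% and 85.1% unthinned. In T cells of the same libraries, Fos stood at 1094 and 1616 CPM, a ratio of 0.677. Thus Fos was lower at 12 h in both cell types. Fosb stood at 37.6 and 63.2 CPM, a ratio of 0.595 (interval 0.470 to 0.750) that was 0.680 without the NK-led and Kcnq1ot1-led sub-clusters and 0.822 in thinned cells, both short of 1.5-fold. Egr1, a zinc finger factor induced by receptor signals, stood at 163 and 261 CPM, a ratio of 0.625 (interval 0.559 to 0.698), and was seen in 12.3% and 17.6% of thinned B cells. In T cells the ratios of Fosb and Egr1 were 0.4 and 0.558, further below 1 than in B cells. Jun stood at 544 and 815 CPM, a ratio of 0.668 (interval 0.628 to 0.710) that lay just short of 1.5-fold, and at 613 and 705 CPM in T cells, a ratio of 0.869. Zfp36, which destabilises cytokine messages, had a ratio of 0.723, and the signal-responsive brakes Btg2 and Dusp1 ratios of 0.767 and 0.772. Junb, at 609 and 603 CPM, and Atf3, at 163 and 157 CPM, differed little, as did the heat shock genes Hspa8 (531 and 485 CPM) and Hsp90aa1 (438 and 441 CPM). The whole list summed to 7740.4 and 9802 CPM in B cells and 7847 and 8821 CPM in T cells. The labels do not say whether the livers of both time points were digested on the same day, and the part of digestion in these values was not tested.

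**Figure D2:**
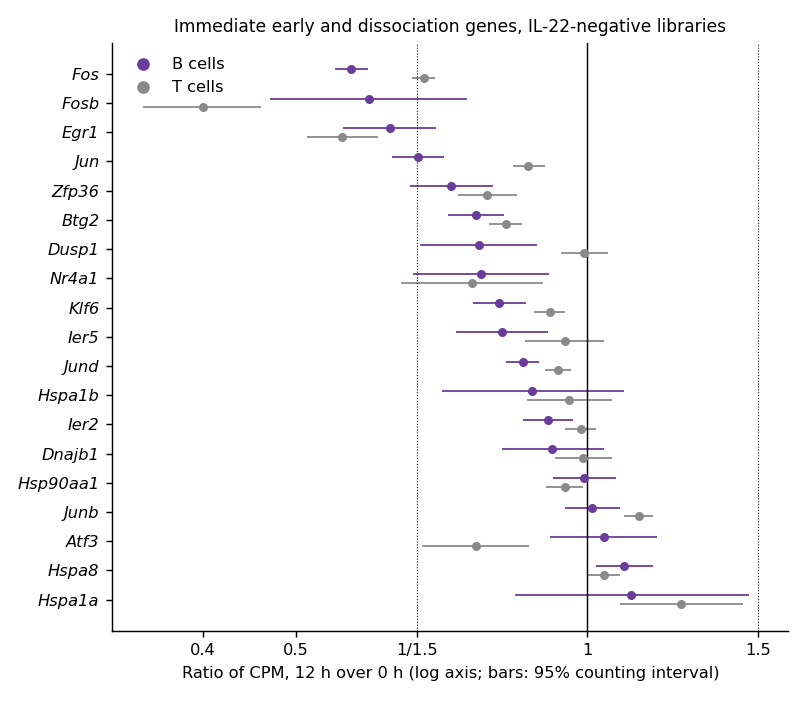
Ratio of 12 h over 0 h (log axis) of 19 immediate early and dissociation genes in B cells (purple) and T cells (grey) of the IL-22-negative libraries, with exact 95% counting intervals as bars and dotted lines at 1.5-fold. Fos, Fosb and Egr1 lay beyond the lower line in B cells, at 0.570, 0.595 and 0.625, and Jun lay at 0.668.

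Genes downstream of receptor and NF-kappaB signalling gave single members past 1.5-fold. Tnfaip3, which encodes the A20 brake on NF-kappaB, stood at 77.9 CPM at 12 h and 137 at 0 h, a ratio of 0.569 (interval 0.485 to 0.667). Its ratio was 0.704 without the NK-led and Kcnq1ot1-led sub-clusters, and the Kcnq1ot1-led one held 15.3% of its UMIs at 12 h and 42.1% at 0 h. The other eligible NF-kappaB targets ran from 0.755 for Relb to 1.22 for Bcl3, and Nfkbia, the inhibitor IkappaB alpha, had 465 and 425 CPM. Of 14 activation genes, 1 was past 1.5-fold upwards and 1 downwards (Nme1 and Egr1), and Myc stood at 72.7 and 70.4 CPM. Cd69, an early activation marker that also holds cells in tissue, stood at 475 and 578 CPM, and the co-stimulatory ligand gene Cd86 at 46.4 and 62.9 CPM. Tec, a kinase of the receptor pathway, was among the 15 lowest genes with 43.1 and 76.3 CPM, a ratio of 0.564. None of the 15 genes of a receptor signalling list passed 1.5-fold (median log2 ratio -0.10): Syk, its first kinase, stood at 230.3 and 226 CPM, Blk at 219 and 285 CPM, and Btk at 73.9 and 96.7 CPM. None of 6 inhibitory genes passed it either, among them Cd22 at 75.4 and 102 CPM.

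Of 12 follicular B cell genes, 1 was past 1.5-fold, downwards. Of all eligible genes 2.78% were past it downwards, and their median log2 ratio was -0.06. Fcer2a (chromosome 8, 3681737 to 3694175, minus strand), which encodes CD23, the low-affinity IgE receptor of follicular B cells, stood at 142 CPM (464 UMIs in 375 cells) at 12 h and 215 CPM (653 UMIs in 498 cells) at 0 h, a ratio of 0.660 (interval 0.584 to 0.744). It was seen in 14.3% of B cells thinned to 1000 UMIs at 12 h and in 19.3% at 0 h, and in 0.226% and 0.906% of thinned T cells. The list's median log2 ratio was -0.20. Without the NK-led and Kcnq1ot1-led sub-clusters, the ratio of Fcer2a was 0.694, short of 1.5-fold. Cd55, a complement regulator, stood at 296 and 396 CPM, and Cxcr5, the receptor that leads B cells into follicles, at 38.2 and 48.0. The complement receptor gene Cr2, of marginal zone and follicular cells, stood at 32.4 and 47.7 CPM, a ratio of 0.679. All 13 eligible homing and egress genes lay below 1 (median log2 ratio -0.25, and -0.21 in T cells), with Itga4, an integrin subunit for vascular adhesion, the only one past 1.5-fold at 94.1 and 143 CPM. S1pr1, the receptor that guides egress into blood, stood at 69.9 and 97.1 CPM, and Klf2, a factor that sustains S1pr1, at 4137 and 4768 CPM. The cytokine receptor genes Il4ra (36.3 and 55.3 CPM, ratio 0.657) and Il21r (43.1 and 67.1 CPM, ratio 0.642) were the 2 past 1.5-fold of 8 BAFF and survival receptor genes, 4 of which lay below 1, while Tnfrsf13c, the BAFF receptor, stood at 169 and 168 CPM. With median-ratio scaling Fcer2a, Il4ra, Il21r and Itga4 had ratios of 0.688, 0.685, 0.669 and 0.684, all short of 1.5-fold.

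Ifi30 and Napsa, enzymes of the lysosome that were set side by side after their values were seen, were higher at 12 h. Ifi30 (chromosome 8, 70762774 to 70766663, minus strand) encodes GILT, a thiol reductase that unfolds antigen for loading on MHC class II. It stood at 929 CPM at 12 h (3040 UMIs in 998 cells) and 557 CPM at 0 h (1693 UMIs in 783 cells), a ratio of 1.67 (interval 1.57 to 1.77). It was seen in 57.6% and 46.7% of B cells, or 45.4% and 36.0% when thinned. In T cells it stood at 135 and 63.6 CPM and was seen in 6.98% and 4.89% of thinned cells. Its promoter, chr8:70766614-70766913 on the minus strand of GRCm38.p6, is shown as the one of a gene that was higher, with the same 3 motifs in capitals.
Ifi30: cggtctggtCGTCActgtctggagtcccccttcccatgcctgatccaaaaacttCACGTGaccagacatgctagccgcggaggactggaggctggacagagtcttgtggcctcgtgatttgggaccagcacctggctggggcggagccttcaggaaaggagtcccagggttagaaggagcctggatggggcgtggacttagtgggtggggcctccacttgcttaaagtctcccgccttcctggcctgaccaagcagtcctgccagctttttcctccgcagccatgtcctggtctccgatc
This window held 1 CRE half-site, on the other strand, and 1 E-box. Napsa (chromosome 7, 44572380 to 44586862, plus strand) encodes an aspartic protease of lysosomes. It stood at 848 CPM at 12 h (2776 UMIs in 1162 cells) and 554 CPM at 0 h (1685 UMIs in 971 cells), a ratio of 1.53 (interval 1.44 to 1.63). Its ratio was 1.33 in the sums of thinned cells, and it was seen in 50.1% and 41.4% of thinned B cells and in 2.74% and 3.31% of thinned T cells. Both genes were therefore seen in more B cells at 12 h than at 0 h and far above the level in T cells.

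The MHC class II genes themselves did not pass 1.5-fold. The 11 genes summed to 48959 CPM at 12 h and 50865 CPM at 0 h in B cells, a ratio of 0.963, and to 1412 and 1125 CPM in T cells. Cd74, the invariant chain that guides class II molecules to lysosomes, stood at 32405 and 32804 CPM. H2-Aa stood at 6661 and 7002 CPM, H2-Eb1 at 4473 and 5053, and H2-Ab1 at 2599.9 and 2972. The class II transactivator gene Ciita stood at 69.9 and 84.6 CPM. None of 12 MHC class I genes passed 1.5-fold, with B2m at 1424 and 1403 CPM.

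Several genes of biosynthesis, grouped after their values were seen, were among the higher ones. Srm, spermidine synthase, stood at 74.8 CPM at 12 h and 43.8 at 0 h, a ratio of 1.71 (interval 1.38 to 2.13), and Mrto4, a ribosome assembly factor, at 55.6 and 33.9, a ratio of 1.64. Nme1, a nucleoside diphosphate kinase, stood at 287 and 185 CPM, a ratio of 1.55 (interval 1.39 to 1.72), and Mettl1, a methyltransferase of transfer RNA, at 45.2 and 28.3, a ratio of 1.60. Pdcd4, an inhibitor of translation, was also higher, at 183 and 117 CPM. The T cell ratios were 1.12 for Srm, 1.19 for Mrto4, 1.14 for Nme1 and 1.05 for Mettl1. Of 9 glycolysis genes 8 lay above 1, with a median log2 ratio of 0.21 (0.18 in T cells). Pgam1, phosphoglycerate mutase, was the only one past 1.5-fold at 33.3 and 21.1 CPM. Over all eligible genes the median was -0.06, and 1.11% were past 1.5-fold upwards. In the unfolded protein response list, with 13 eligible genes and a median of 0.04, Sdf2l1 was past 1.5-fold upwards (58.9 and 37.2 CPM) and Dnajb9 downwards (37.3 and 62.5 CPM), both of them chaperone cofactors of the endoplasmic reticulum.

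Interferon response genes were not higher in B cells at 12 h. Of 35 listed genes 14 were eligible, 0 passed 1.5-fold in either direction, and 11 lay below 1. Their median log2 ratio was -0.30 in B cells and 0.35 in T cells of the same libraries. The whole list summed to 1727 and 2045 CPM in B cells and to 3634 and 2472 CPM in T cells. Isg15, a ubiquitin-like protein induced by type I interferon, stood at 52.5 and 36.2 CPM in B cells (ratio 1.45) and at 467 and 179 CPM in T cells (ratio 2.60). Bst2, or tetherin, stood at 109 and 114 CPM in B cells and at 326 and 166 CPM in T cells. Ifi27l2a, an interferon-inducible gene, stood at 613 and 769 CPM in B cells and 1029 and 764 CPM in T cells. Ifitm2 and Ifitm3, interferon-induced membrane proteins kept outside that list, were among the 15 highest genes of B cells. Ifitm2 stood at 32.1 and 6.58 CPM, in 45 and 17 cells, and Ifitm3 at 59.3 and 18.8 CPM, in 94 and 48 cells. In T cells Ifitm3 stood at 118 and 30.9 CPM. With equal weight for each B cell, the ratios were 2.90 for Ifitm2 and 1.82 for Ifitm3, against 4.87 and 3.16 in the sums. At 12 h, 43 of the 105 Ifitm2 UMIs sat in 5 cells, and 92 of the 194 Ifitm3 UMIs in 17 cells, of the sub-cluster led by Zbtb32.

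**Figure D3:**
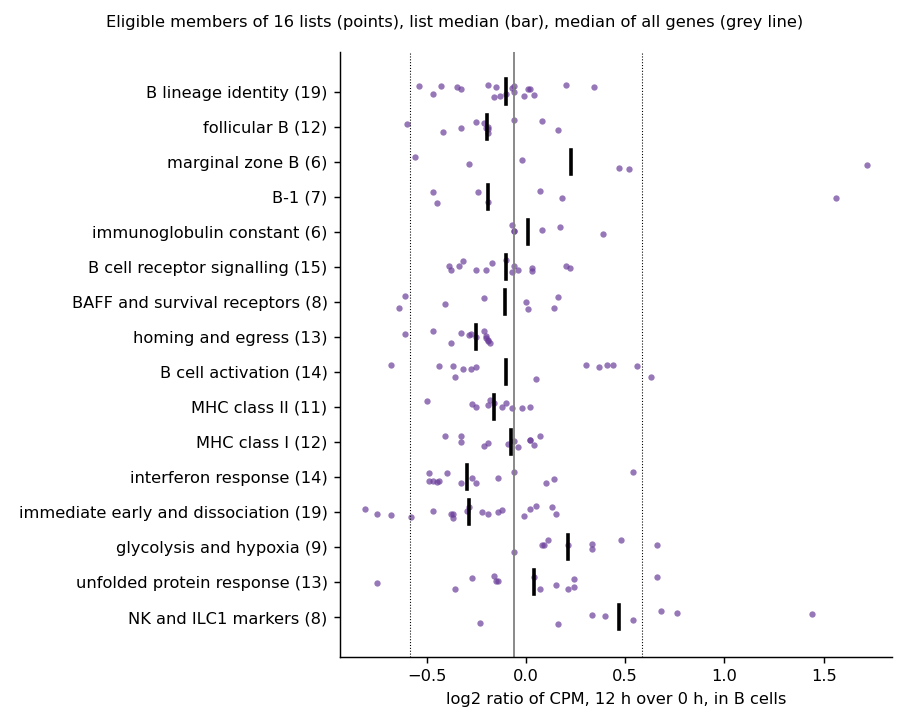
Log2 ratio of 12 h over 0 h for the eligible genes of 16 lists in B cells of the IL-22-negative libraries (points), with each list's median (black bar), the median of all 3345 genes (grey line, -0.06) and 1.5-fold (dotted lines). The immediate early, interferon and homing lists have medians of -0.29, -0.30 and -0.25, and the list of NK and ILC1 markers one of 0.47.

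Replication-dependent histone genes, a family singled out after its values were seen, were mostly lower at 12 h. Of 16 eligible genes 7 were past 1.5-fold downwards and 0 upwards, against 2.78% and 1.11% of all eligible genes. In the family 14 lay below 1, and the median log2 ratio was -0.51. Hist1h2an stood at 16.2 and 34.6 CPM (ratio 0.469), Hist1h4d at 41.8 and 81.0 CPM (0.517) and Hist1h1b at 54.1 and 99.4 CPM (0.544). Their ratios in T cells were also below 1, at 0.509, 0.565 and 0.62. The most abundant, Hist1h2ap, went the other way with 521 and 374 CPM, and the family summed to 1600.2 and 1928 CPM. These messages lack a poly(A) tail for the most part, so a poly(A) library captures them incompletely. Of 4 eligible proliferation genes, Pcna, the replication clamp, stood at 46.4 and 45.4 CPM, Hmgb2 at 311 and 310, and Stmn1, a microtubule regulator, at 32.1 and 18.4 (ratio 1.74, and 0.950 when cells were thinned to 1000 UMIs). Malat1, a long nuclear RNA, stood at 9832 and 15173 CPM in B cells (ratio 0.648) and at 9212 and 13050.2 CPM in T cells (ratio 0.706). Txnip, an inhibitor of glucose uptake, stood at 181 and 273 CPM, a ratio of 0.661.

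The remaining genes among the 15 lowest were Utrn (19.2 and 39.8 CPM), Ankfy1 (17.4 and 34.2), Pgap1 (34.2 and 65.5), Nptn (26.3 and 48.4), Tm9sf2 (20.8 and 38.2), Aff3 (33.6 and 60.5), Hist1h2ab (20.5 and 36.9), Wsb1 (22.3 and 39.8), Cep83 (24.4 and 43.4), Brap (21.4 and 37.8) and Phf21a (19.5 and 34.6). Aff3 is a nuclear protein of lymphoid cells. Each rested on 184 UMIs or fewer at 0 h except Pgap1 with 199. Each interval lay below 1, but the genes were picked for their low ratios, so the intervals are no support. All but Pgap1 and Aff3, with 112 and 110 UMIs at 12 h, reached 100 UMIs only at 0 h, where they were higher.

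S100a6 had the largest ratio of any gene with more than 1000 UMIs at 12 h past the threshold, and few cells carried it. S100a6 (chromosome 3, 90612882 to 90624181, plus strand), a small calcium-binding protein, stood at 595 CPM at 12 h (1948 UMIs in 295 cells) and 201 CPM at 0 h (612 UMIs in 257 cells). The ratio was 2.95 (interval 2.70 to 3.24), but 1.86 with every cell thinned to 1000 UMIs and 2.08 with equal weight for each cell. The share of B cells with a UMI differed little, at 17.0% and 15.3%, or 11.8% and 10.3% thinned. At 12 h 18 cells held 50% of its UMIs and at 0 h 22 cells did. Cells with at least 10 UMIs of S100a6, a class set after its values were seen, numbered 43 at 12 h and 11 at 0 h and held 74.7% and 37.4% of its UMIs. They were large, with a median of 4538 and 4451 UMIs. In them the B lineage list summed to 5881 and 8069 CPM, against 9817 and 10005 CPM in B cells without S100a6. The monocyte and macrophage list summed to 1819 and 1328 CPM in them, against 359 and 337 CPM in cells without S100a6. The NK and ILC1 list summed to 3220.4 and 1589.6 CPM in them, against 665 and 836 CPM. The part of doublets with other cell types in this class was not tested beyond a doublet caller.

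Sub-clustering placed most of this S100a6 in a single group of B cells. Clustering without the genes past 1.5-fold gave 14 sub-clusters. A sub-cluster led by Zbtb32, S100a6 and Crip2 held 167 cells at 12 h (9.64%, interval 8.29 to 11.1%) and 218 at 0 h (13.0%, interval 11.4 to 14.7%). Zbtb32 is a transcriptional repressor of lymphocytes. The B-1 list summed to 4690.3 CPM there, against 2828 CPM in the NK-led sub-cluster and 916 to 2209 CPM in the others. The list includes S100a6 and Vim, which lead the sub-cluster, so it is not named after it. S100a6 stood there at 2579 CPM at 12 h and 627 at 0 h, a ratio of 4.11 (interval 3.65 to 4.65). In the 1274 and 1118 cells of the remaining sub-clusters, those not led by NK genes, Kcnq1ot1 or histone genes, it stood at 156 and 102 CPM. Fcrl5, an Fc receptor-like protein of marginal zone and innate-like B cells, stood at 112 and 22.7 CPM in the Zbtb32 sub-cluster, in 36 of 167 and 11 of 218 cells, and over all B cells at 31.5 and 9.54 CPM, a ratio of 3.30 (interval 2.17 to 5.16, and 1.75 in cells thinned to 1000 UMIs). S100a4, of the same family as S100a6, stood there at 169 and 34.1 CPM, and the galectin gene Lgals3 at 195 and 53.1 CPM. Ighd and Fcer2a, which naive follicular cells carry, stood there at 73.6 and 121 CPM and at 64.4 and 149.7 CPM.

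The same sub-cluster had the highest levels of the lysosomal genes at 12 h. Ifi30 stood there at 1535 and 741 CPM, a ratio of 2.07, against 833 and 524 CPM in the remaining sub-clusters, a ratio of 1.59. Napsa stood at 1427 and 705 CPM, a ratio of 2.02, against 760.3 and 538 CPM elsewhere, a ratio of 1.41. Srm stood at 134 and 60.6 CPM, and Nme1 at 431 and 210.3 CPM. Markers of other cell types went in both directions there. Fcer1g, of the monocyte and macrophage list, was higher at 12 h, at 162 and 54.9 CPM. Ccl5 and Nkg7, genes of T and NK cells, were lower, at 122 and 307 CPM and at 33.1 and 85.3 CPM. The interferon-induced gene Ifitm3 stood at 169 and 13.3 CPM. Ifi30 stood at 2106 and 664 CPM in the cells with at least 10 S100a6 UMIs and at 782 and 543 CPM in B cells without S100a6. The part of other cell types in these values was not tested. Fos was lower at 12 h in each of the 5 groups of sub-clusters: it stood at 1116 and 2213 CPM in the Zbtb32 sub-cluster, at 907 and 1694 CPM in a sub-cluster led by Pclaf and histone genes, and at 1312 and 2229 CPM in the remaining sub-clusters. Ifi30 and Napsa were higher at 12 h in all 5 groups. For Ifi30 in the Pclaf sub-cluster, at 797 and 723 CPM, and for Napsa in the NK-led one, at 315 and 223 CPM, the intervals of the ratio included 1.

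**Figure D4:**
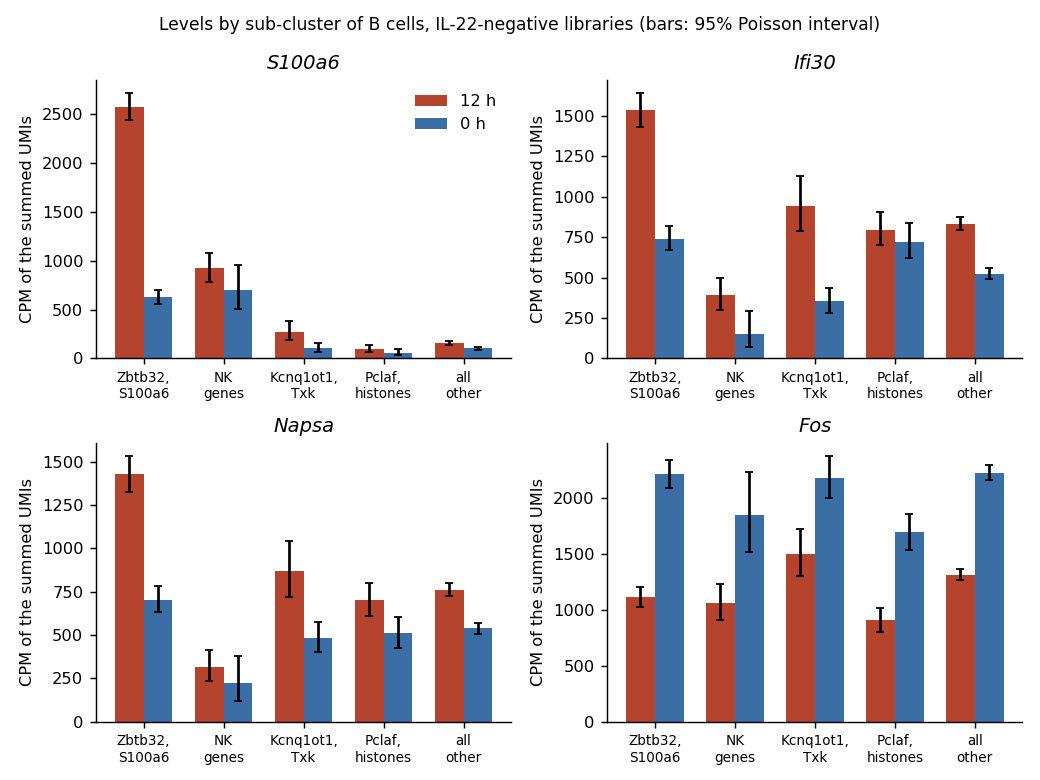
Level in CPM (linear axes from 0) of S100a6, Ifi30, Napsa and Fos in 5 groups of B cell sub-clusters at 12 h (red) and 0 h (blue), with exact 95% Poisson intervals as bars and 1 library per time. S100a6 was highest in the Zbtb32 sub-cluster at 12 h, at 2579 CPM, whereas Fos was lower at 12 h in every group.

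Several higher genes are known as markers of other cell types. A sub-cluster led by NK genes held 47 cells at 12 h (2.71%) and 15 at 0 h (0.896%), with a median of 3374 UMIs, and its NK and ILC1 list summed to 27198 CPM. It held 84.8% of the Gzma UMIs of B cells at 12 h and 53.2% at 0 h. Gzma, granzyme A of killer cells, stood at 399 and 236 CPM over all B cells (ratio 1.69) and had a ratio of 0.566 without the NK-led and Kcnq1ot1-led sub-clusters. Gzmb (1.61 and 0.648) and Xcl1 (2.71 and 0.420) reversed likewise. The whole NK and ILC1 list summed to 1737 and 1248 CPM, with 3 of its 8 eligible genes past 1.5-fold upwards, against 1.11% of all eligible genes. The monocyte and macrophage list summed to 590.4 and 427 CPM, with Fcer1g, a signalling adaptor of Fc receptors, past 1.5-fold at 173 and 88.8 CPM. The NK-led sub-cluster held 56.9% of the Fcer1g UMIs at 12 h and 40.7% at 0 h. Without it and the Kcnq1ot1-led one, the ratio of Fcer1g was 1.44, short of 1.5-fold, and the list summed to 357 and 319 CPM. The neutrophil list summed to 285 and 90.5 CPM. For S100a8, 193 of 385 UMIs at 12 h and 110 of 114 at 0 h sat in 1 cell each, and for S100a9 250 of 441 and 138 of 145. Without those cells the ratios were 44.6 for S100a8 and 25.3 for S100a9, against 3.13 and 2.82 with them, and in T cells S100a8 stood at 123 and 4.92 CPM and S100a9 at 126 and 8.41 CPM. The chemokine gene Cxcl2, with 57.1 and 6.25 CPM and the highest ratio of all eligible genes (9.14), had 120 of 187 UMIs in 1 cell and a ratio of 4.15 without it. Ccl6, with 53.5 and 9.87 CPM, had 107 of 175 UMIs in 1 cell. Pf4, a platelet chemokine, had 94 UMIs in 3 cells at 12 h and none at 0 h. The other genes among the 15 highest were Alox5ap (37.6 and 14.5 CPM), of leukotriene synthesis, and the metallothionein gene Mt1 (30.5 and 14.2 CPM).

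The 2 IL-22-negative libraries each contained cells with Xist and cells with Y-linked transcripts, and the main values were read in either kind of cell. B cells with Xist and no Y-linked transcript numbered 591 at 12 h and 541 at 0 h, B cells with a Y-linked transcript and no Xist 111 and 166, and 1018 and 954 had neither. These cells are part of the sums above. The ratio of Fos was 0.543 in Xist cells and 0.588 in Y-linked cells, that of Ifi30 1.62 and 1.73, that of Napsa 1.61 and 1.44, that of S100a6 4.78 and 4.87, that of Fcer2a 0.638 and 0.472, and that of Srm 1.74 and 2.70. Each of these lay on the same side of 1 in both kinds of cell. These genes were chosen for their ratios in sums that include both kinds, so this is no independent support. For S100a6 both ratios were larger than the 2.95 over all B cells, and the reason was not tested. Ifi27l2a did not, with 0.793 in Xist cells and 1.39 in Y-linked cells.

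**Figure D5:**
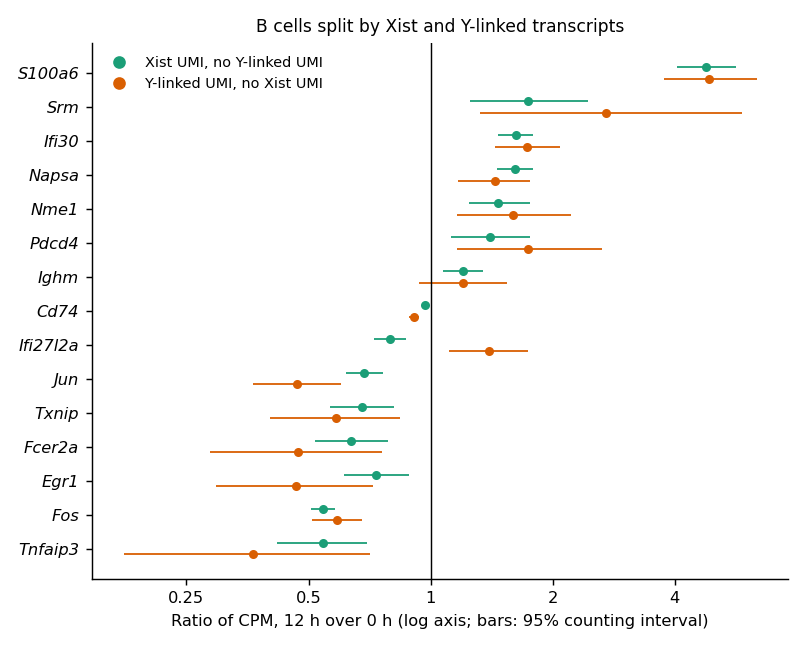
Ratio of 12 h over 0 h (log axis) of 15 genes in B cells with Xist and without Y-linked transcripts (green) and in B cells with Y-linked transcripts and without Xist (orange), with exact 95% counting intervals as bars. S100a6 (4.78 and 4.87) and Fos (0.543 and 0.588) lay on the same side of 1 in both, and Ifi27l2a (0.793 and 1.39) did not.

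The few B cells sorted as IL-22-positive were set against the IL-22-negative ones of the same time, with 34939 UMIs in 22 cells at 12 h and 71805 UMIs in 32 cells at 0 h. Of 152 genes with at least 20 UMIs and 500 CPM in the higher sum, 26 were at least 1.5-fold higher and 33 lower in positive cells at 12 h. At 0 h, 8 of 148 were higher and 10 lower. Without the cell that held most UMIs of each gene, 5 of 136 were higher and 42 lower at 12 h, and 1 of 132 higher and 24 lower at 0 h. The totals were kept in this step, and 1 cell is a far larger part of 22 or 32 positive cells than of the negative ones. Ratios therefore fall by construction, and the shift towards lower genes cannot be read as a result. Cd74 stood at 17230 CPM in positive cells (interval 15881 to 18663) and 32405 CPM in negative cells at 12 h, a ratio of 0.532, and at 31613 and 32804 CPM at 0 h, a ratio of 0.964. Ccl5, a chemokine of T and NK cells, had no UMI in positive cells and stood at 801 CPM in negative cells at 12 h and 607 CPM at 0 h. Of its UMIs in negative B cells, the NK-led sub-cluster held 80.0% at 12 h and 40.0% at 0 h, and the remaining sub-clusters stood at 166 and 348 CPM. S100a6 stood at 57.2 and 595 CPM at 12 h. The other lowest genes were Rbm3, Coro1a and Eif3h at 12 h (85.9, 286 and 85.9 CPM in positive cells, 542, 1743 and 518 in negative cells) and Hnrnpa3, Lcp1, Actg1 and Laptm5 at 0 h, with ratios of 0.501 to 0.518. The highest at 12 h were the light chain gene Iglc1 (658 and 227 CPM), Tcea1 (716 and 249.5), the chaperone gene Hspa5 (773 and 295), Vpreb3 (716 and 334), which binds immunoglobulin chains during their assembly, and Cox7c (859 and 413). Their ratios were 2.90, 2.87, 2.62, 2.14 and 2.08, and without the top cell of each gene 1.80, 2.43, 1.38, 1.66 and 1.88. The highest at 0 h were Hmgb2, which had a ratio of 2.02 and one of 0.699 without its top cell, Btg1, Atp5e, Tra2b and Igkc (1448 and 900.3 CPM). The lowest genes and the highest at 12 h passed 500 CPM only in the sum where they were higher. Hmgb2 and Tra2b at 0 h did so too. The filter thus favoured such genes, and their ratios are given as a description only.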

How the data were processed

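Droplet libraries of sorted liver leukocytes were sequenced in 4 groups of 1 library each. The deposited matrices hold raw UMI counts per gene and barcode, not normalized. They were written by Cell Ranger 4.0.0 per the file headers, while the submitters' processing notes name Cell Ranger 3.0.1 and build mm10. Barcodes were filtered and B cells chosen by the rule given above. UMIs were summed over the B cells of a library and divided by that sum (CPM), and ratios have exact conditional binomial intervals, shares exact Clopper-Pearson intervals and levels exact Poisson intervals. Since 1 library stands for each group, no count model was fitted. Shares of cells were also taken after each cell was thinned to 1000 UMIs, leaving out shallower cells (1634 and 1553 B cells remained at 12 h and 0 h).

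B cells were clustered (scanpy 1.11.5, Leiden through igraph 0.11.9, 1000 variable genes, 15 components, 15 neighbours, resolution 1) without receptor segments, rule genes, mitochondrial and ribosomal genes and genes past 1.5-fold between both libraries. Doublets were kept in the main values, and Scrublet, run in each library with the threshold of the 0 h library for both IL-22-negative ones, marked 52 and 55 B cells. In the IL-22-negative library at 12 h the automatic threshold called 1 barcode, and the threshold of the 0 h library called 607. The calls at 12 h thus rest on that choice. The text names the 15 eligible genes with the highest and lowest ratio, the 5 highest and lowest for the IL-22-positive cells, immunoglobulin constant genes, and list members that were past 1.5-fold or abundant. A few others, such as Jun just short of the threshold and the histone family, were named after their values were seen. The members, the 39 lists and the comparisons were chosen with earlier results of these data known. The removal of the NK-led and Kcnq1ot1-led sub-clusters, those with the highest sums of the NK list and, besides it, of the T cell list, and the split by Xist and Y-linked transcripts were added after the data were seen. Of 32285 features, 32235 matched GENCODE vM21. The ratio step was run on simulated sums drawn as independent Poisson counts, without UMIs clumped in single cells. That run therefore cannot show how the intervals behave for genes whose UMIs sit in few cells. Other tools were Python 3.11.15, numpy 2.4.6, scipy 1.17.1 and pandas 2.3.3.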

Additional observations from a re-analysis of the deposited data

Results flagged for a closer look

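Some genes had ratios of 12 h over 0 h on opposite sides of 1 in B cells and T cells of the same IL-22-negative libraries. None of these differences was tested, because each time is 1 library. Ccl6 had a ratio of 5.41 in B cells and 0.237 in T cells, so that the first was 22.8 times the second, and 107 of its 175 UMIs in B cells at 12 h sat in 1 cell. Ccl3, a chemokine, had 1.32 in B cells and 0.753 in T cells, a quotient of 1.75. The class II gene H2-Ab1 had 0.875 and 1.41, a quotient of 0.621. Ifi27l2a had 0.797 and 1.35, a quotient of 0.590.

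Other genes had ratios on opposite sides of 1 in B cells with Xist and B cells with Y-linked transcripts, which was not tested either. Ifi27l2a had 0.793 in Xist cells and 1.39 in Y-linked cells, a quotient of 0.571. Hmgb2, a chromatin protein of dividing cells, had 0.812 and 2.22, a quotient of 0.366. The heat shock genes Hspa8 (1.28 and 0.750) and Hspa1a (2.08 and 0.349) had quotients of 1.71 and 5.96.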

How the results depend on the processing

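The lower share of B cells at 12 h kept its direction under every alternative run. The ratio of shares, 0.850, was 0.724 over barcodes with at least 1000 UMIs, 0.778 under 5% mitochondrial UMIs and 0.782 over B and T cells. The share was 10.9% at 12 h and 12.6% at 0 h where all 3 markers were required, 29.1% and 37.2% of B and T cells, and at 0 h 24.1% with at least 1000 UMIs and 22.4% under 5% mitochondrial UMIs. Against 37 higher and 93 lower genes, cells thinned to 1000 UMIs gave 13 and 28, genes with at least 300 UMIs 11 and 14, no filter 1101 and 1975, and a 2-fold limit 12 and 2. Xist cells gave 23 and 34 and Y-linked cells 18 and 13. Lower genes numbered 53 with median-ratio scaling, 59 with totals without receptor, mitochondrial and ribosomal genes, 52 with all 3 markers required and 144 with equal weight for each cell. Among list members, 12 higher and 10 lower, thinning gave 4 and 4, equal weight 6 and 16, Y-linked cells 7 higher, and median-ratio scaling 5 lower. Ratios past 1.5-fold that turned round were those of Gzma (0.767 without Scrublet calls), of Gzma, Gzmb and Xcl1 without the NK-led and Kcnq1ot1-led sub-clusters (0.566, 0.648 and 0.420), of Ccl6 and Phf21a in Y-linked cells (0.623 and 2.49), of S100a9 and the erythroid and platelet list in Xist cells (0.625 and 0.556) and of Stmn1 in thinned cells (0.950). Ratios short of 1.5-fold also changed side, such as those of Ifi27l2a in Y-linked cells (1.39) and of the NK and ILC1 list without both sub-clusters (0.519). The cause was not tested beyond what each alternative leaves out. Without the top cell of each gene, the IL-22-positive B cells had 5 higher genes at 12 h, and 1 higher and 24 lower at 0 h. With so few positive cells, this step lowers the ratios by construction. The ratio of the share of cells with a UMI was 0.825 for Fos when not thinned, and 1.43 for Ifi30 and 1.58 for S100a6 when thinned to 500 UMIs, and a doubled resolution gave 32 sub-clusters. No paired analysis was possible because each group is 1 library. At this depth, genes under 100 UMIs in the higher sum were not compared.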

Other observations

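Most B cells held transcripts of a lambda light chain, although mouse B cells mostly use kappa. A lambda constant gene was seen in 94.3% of B cells at 12 h and 92.7% at 0 h in the IL-22-negative libraries, against 3.17% and 6.57% of T cells. Both kappa and lambda were seen in 59.6% and 61.0% of B cells, lambda alone in 34.7% and 31.6%, and kappa alone in 2.42% and 1.79%. Iglc2 stood at 1753 and 1830.3 CPM in B cells, Iglc3 at 738 and 771, and Iglc1 at 227 and 173, while T cells had 6.02 and 18.3 CPM of Iglc2. Iglc2 and Iglc3 are near-identical copies, so the split of UMIs between these genes is uncertain. A 3' tag of the constant region does not tell a rearranged transcript from an unrearranged one.

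Transcripts of acute phase genes, which hepatocytes secrete in quantity during inflammation, summed to 30.8 CPM in B cells at 12 h and 7.90 at 0 h (101 and 24 UMIs), and to 16.6 and 3.49 CPM in T cells. The other hepatocyte markers did not show this difference, with 10.4 and 13.8 CPM in B cells. Transcripts of NK cells seen in cells outside the NK-led sub-cluster went the other way: in the sub-clusters not led by Zbtb32, NK genes, Kcnq1ot1 or histone genes, Ccl5 stood at 166 and 348 CPM and Nkg7, a protein of cytotoxic granules, at 42.3 and 101 CPM.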
